A study of Homo sapiens with 4 samples.

Results

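The genes described here are the members of the tumour necrosis factor (TNF) ligand and receptor families, the TRAF adapters and the RIPK kinases on a NanoString panel, compared between wild-type and MATR3 knockout HAP1 cells. They were taken by a rule on symbols, as the rows whose names begin with TNF, TRAF, RIPK and related stems. This rule was set with earlier results of these data known. It gave 23 of the 785 gene probes: 8 ligands, 9 receptors, 3 TRAF adapters and 3 RIPK kinases. The rule also covered the inhibitors of apoptosis (BIRC genes and XIAP), the death domain adapters TRADD and FADD, and lymphotoxin alpha. It matched 0 rows for these, and they are not analysed here.

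HAP1 is an established near-haploid human cell line. The samples were total RNA from 4 lines: wild-type 1 and 7 (2 lines) and MATR3 knockout 1 and 5 (2 lines). All were bought from a supplier and grown in the same medium, and the labels name no stimulus. MATR3 encodes matrin 3, a nuclear RNA- and DNA-binding protein. The knockout lines are single clones and the wild-type lines are batches that the labels also call clones, with 1 sample each. The spread between samples of a genotype is therefore a spread between lines. P-values rest only on such spreads, that of each gene being moderated towards those of other genes of similar level. MATR3 was not analysed here, so the values do not check the genotype labels.

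TNF family ligands are trimeric proteins, many of them made by immune cells, that cluster receptors on the surface of a target cell. Receptors with a death domain, such as TNFRSF1A, FAS and the TRAIL receptor TNFRSF10B, can recruit RIPK1 and caspase-8, and the outcome ranges from survival signalling to apoptosis. TRAF proteins link receptors to kinases of the NF-kB and JNK pathways. RIPK3 carries the necroptotic branch, in which it phosphorylates MLKL.

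Values are normalised counts, that is, probe counts multiplied by 1 factor per sample by the authors. Total gene counts ranged from 448610 to 571767 per sample. As a background limit, 2 SD were added to the average of the negative controls in each sample, which gave 25.7 (line 1) and 21.1 (line 7) in the wild type and 19.5 (line 1) and 21.7 (line 5) in the knockout. Of 11 leukocyte markers on the panel, 7 lay at or below the limit in all 4 samples, among them PTPRC at 6.68 to 9.39, while CD14 and CD68 lay above it in all 4. The summed level of the 11 was 206 and 245 in the wild type and 193 and 142 in the knockout, and its part in the results was not tested. PECAM1, an endothelial marker, was at 6.24 to 11.5. Each probe counts with its own efficiency, so levels of different genes are set against the background limit and not against each other. In bulk RNA, fewer cells that express a gene and less RNA per cell cannot be told apart.

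In these cells the receptor-proximal signalling genes were counted well and most of the ligands were not. All 3 TRAF adapters, RIPK1 and RIPK2 lay above the background limit in all 4 samples, as did 4 of the 9 receptors (FAS, TNFRSF10B, TNFRSF1A and TNFRSF25). Among the 8 ligands only TNFSF10, which encodes TRAIL, did so. Over the family this was 10 of 23 genes (43.5%), beside 49.6% of the whole panel. A further 8 members lay at or below the limit in every sample: the ligands TNF, FASLG, TNFSF13B and TNFSF18 and the receptors LTBR, TNFRSF4, TNFRSF9 and TNFRSF18. The remaining 5, LTB, TNFSF4, TNFSF9, TNFRSF17 and RIPK3, were above it in some samples only.

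**Figure D1:**
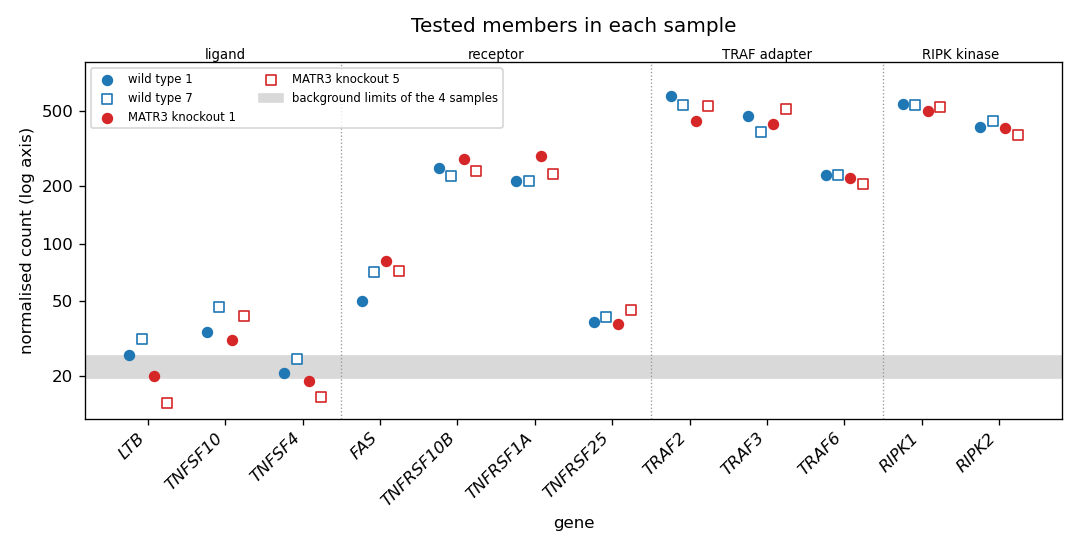
Normalised count on a log axis of each of the 12 members with a mean of 20 or more, in the 2 wild-type lines (blue) and the 2 MATR3 knockout lines (red), 1 point per sample, with the range of the 4 background limits in grey. The TRAF and RIPK genes sit between 205 and 602 and the genotypes lie close together, while LTB and TNFSF4 sit in or near the grey band.

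The promoters of the members differed in a sequence feature that the rule did not use, the number of CpG dinucleotides in the 300 bases around the start (250 before and 50 after it). Sequences came from RefSeq on GRCh38.p14 and matched 18 of the 23 members, with 24 start sites in all and the median taken over the starts of a gene. The 3 TRAF promoters held 28 to 61 CpGs and that of RIPK1 held 36. In 7 of the 8 ligands the number was 11 or less, the exception being TNFSF9 with 27. Members above the background limit in all 4 samples had a median of 29.5 CpGs (8 genes) and those at or below it in every sample had a median of 8 (7 genes). Over the 587 panel genes with a promoter entry the same medians were 25 (314 genes) and 4 (138 genes), in the same order. This is a description of promoter windows, and no relation to transcription in HAP1 was tested.

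Several members went against that order. TNFRSF1A was above the background limit in all 4 samples with 4 CpGs. LTBR, a receptor gene separated from it by 1 other coding gene on the same chromosome, was below the limit in all 4 with 29. TNFSF10 was above the limit in all 4 with 3, and TNFRSF18 was below it in all 4 with 23. TRAF2 and FASLG followed the order, with 44 and 3 CpGs. The promoters of TRAF2, LTBR, TNFRSF1A and FASLG are shown to let the contrast be read in the letters, with each CpG in capitals. These 4 were picked after the values had been seen. TRAF2 lies at chr9:136886266-136886565 (plus strand), LTBR at chr12:6383912-6384211 (plus strand), TNFRSF1A at chr12:6342027-6342326 (minus strand) and FASLG at chr1:172658853-172659152 (plus strand).
TRAF2: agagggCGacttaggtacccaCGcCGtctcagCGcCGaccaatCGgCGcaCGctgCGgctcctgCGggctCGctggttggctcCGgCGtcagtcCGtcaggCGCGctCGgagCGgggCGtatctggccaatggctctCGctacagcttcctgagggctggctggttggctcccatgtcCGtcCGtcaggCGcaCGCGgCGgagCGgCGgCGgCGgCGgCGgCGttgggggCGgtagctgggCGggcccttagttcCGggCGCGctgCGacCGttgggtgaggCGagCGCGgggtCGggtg
LTBR: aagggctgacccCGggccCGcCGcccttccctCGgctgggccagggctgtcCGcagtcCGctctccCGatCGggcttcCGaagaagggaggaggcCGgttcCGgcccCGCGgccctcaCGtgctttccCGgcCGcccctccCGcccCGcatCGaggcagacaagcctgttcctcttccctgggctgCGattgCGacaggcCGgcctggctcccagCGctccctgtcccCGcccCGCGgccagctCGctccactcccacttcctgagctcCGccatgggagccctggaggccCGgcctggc
TNFRSF1A: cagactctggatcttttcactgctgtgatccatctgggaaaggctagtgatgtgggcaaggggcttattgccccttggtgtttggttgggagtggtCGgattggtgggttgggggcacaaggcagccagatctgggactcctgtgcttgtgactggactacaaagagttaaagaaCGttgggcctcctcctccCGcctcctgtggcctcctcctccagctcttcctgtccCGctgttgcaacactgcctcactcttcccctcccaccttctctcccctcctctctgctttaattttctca
FASLG: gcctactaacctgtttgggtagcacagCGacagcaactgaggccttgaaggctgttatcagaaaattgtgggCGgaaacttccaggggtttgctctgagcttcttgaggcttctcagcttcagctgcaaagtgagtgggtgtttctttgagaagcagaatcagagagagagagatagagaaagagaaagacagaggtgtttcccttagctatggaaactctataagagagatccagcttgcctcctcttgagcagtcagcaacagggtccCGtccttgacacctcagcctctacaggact

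**Figure D2:**
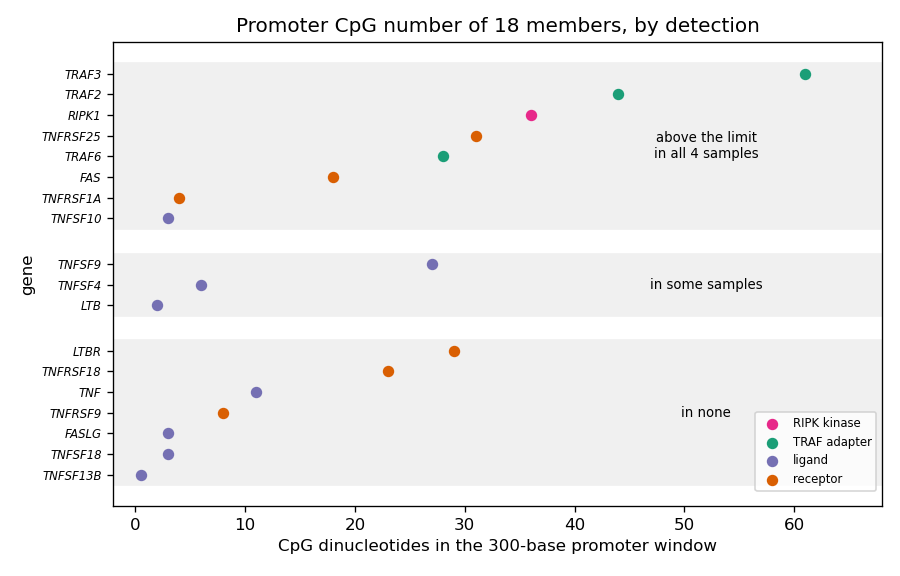
Number of CpG dinucleotides in the promoter window of 18 members, 1 point per gene coloured by role, in 3 blocks by whether the gene lay above the background limit of the sample in all 4, some or none of the samples. Points of the upper block (8 genes, median 29.5) lie mostly to the right of those of the lower block (7 genes, median 8). TNFRSF1A (4) and TNFSF10 (3) of the upper block and LTBR (29) and TNFRSF18 (23) of the lower block lie on the opposite sides.

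The comparison of knockout with wild type asked whether loss of matrin 3 went with a change in the expression of these genes. It was made with limma on log2(value + 1) over 514 genes, those whose 4 samples averaged at least 20, of which 12 were members. Of these 12, 0 passed a Benjamini-Hochberg adjusted p of 0.05, where 8.17% of all tested genes did (42 of 514), and a share of 0 in 12 lies near that background. Unadjusted p-values under 0.05 were found for 0 of 12 members and 102 of 514 genes with limma, and for 0 and 98 with edgeR on the recovered whole counts, which called 0 members and 41 genes. The smallest adjusted p of a member was 0.306, that of TNFRSF1A. The members' median log2 fold change was -0.09, beside -0.04 over all tested genes. On the log2 scale, the larger of the 2 differences between lines of a genotype exceeded the difference of the genotype means in 7 of the 12 members. The same held in 311 of the 514 genes.

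The genotypes did not overlap in 8 of the 12 members, beside 53.1% of all tested genes. In 6 of them the knockout was lower (30.7% of all tested genes) and in 2 it was higher (22.4%). The sign of 5 tested members, RIPK1, TRAF3, TNFRSF25, TNFSF10 and TNFSF4, turned under at least 1 other scaling or without 1 sample. Precision depended on the count. For the 7 members with a mean of 200 or more the standard error of the log2 fold change was 0.10 to 0.14. Their 95% confidence intervals reached from -0.48 to 0.59, so in this fit changes larger than 1.5-fold in either direction lay outside them. These bounds hold for the moderated spread and the authors' scaling. With TBP left out of the reference genes used for scaling, TNFRSF1A moved from 0.28 to 0.36. For the 5 members with lower means the intervals reached from -1.61 to 0.89 and left changes of up to 3.04-fold within them.

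**Figure D3:**
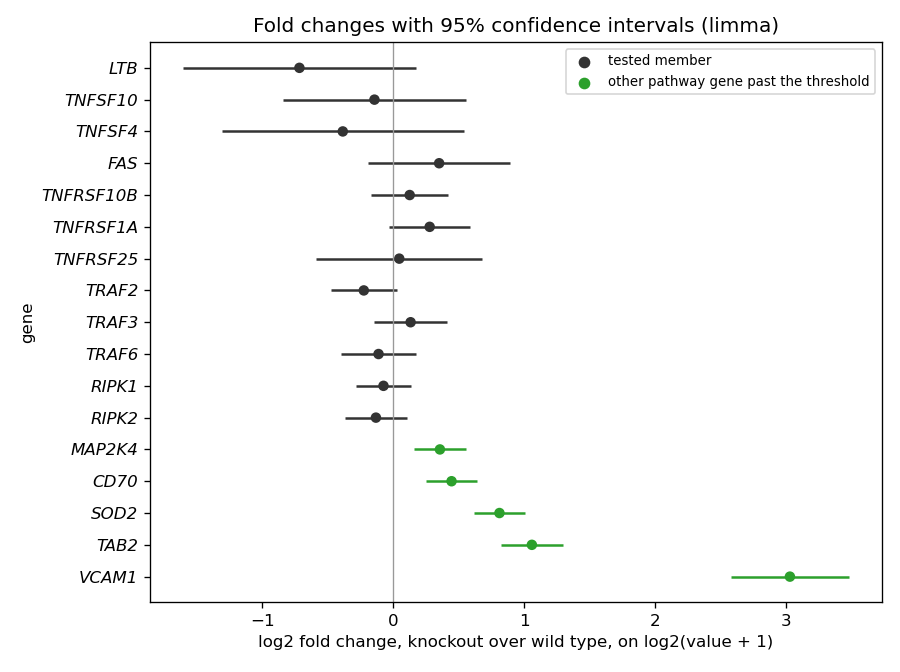
Log2 fold change of knockout over wild type on the log2(value + 1) scale (points) with 95% confidence intervals from limma (lines), for the 12 tested members (black) and the 5 other genes of the TNF pathway list past the threshold (green). All 12 member intervals include 0, and those of TNFRSF1A and TRAF2 only just do.

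Among the receptors, TNFRSF1A, the main receptor of soluble TNF, was at 214 (line 1) and 213 (line 7) in the wild type and at 288 (line 1) and 233 (line 5) in the knockout. Both knockout values were above the wild type, by unequal amounts. The difference on the log2 scale was 0.28 ± 0.14 (SE; 95% interval -0.03 to 0.59; limma adjusted p = 0.306). It was 0.43 without knockout line 5 and 0.13 without knockout line 1, so its size rested on knockout line 1. FAS, the receptor of FASLG, was at 50.1 and 71.0 in the wild type and at 81.2 and 71.8 in the knockout. The groups were separated by less than 1 normalised count, between wild-type line 7 and knockout line 5. The fold change on the log2 scale was 0.35 ± 0.25 (SE; interval -0.19 to 0.89; limma adjusted p = 0.456). It depended on the wild-type lines, at 0.10 without line 1 and 0.60 without line 7.

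TNFRSF10B, a TRAIL receptor with a death domain, overlapped between genotypes, at 250 and 226 in the wild type and 280 and 240 in the knockout. Its log2 fold change was 0.13 ± 0.13 (SE; interval -0.17 to 0.42), and leaving out 1 sample moved it between 0.015 (without knockout line 1) and 0.24 (without knockout line 5), with 0.052 without wild-type line 7. TNFRSF25, a death-domain receptor known from T cells, was at 38.6 and 41.1 against 37.8 and 44.8. The knockout values lay on both sides of the wild type, and the interval of its log2 fold change of 0.05 was wide, from -0.59 to 0.68.

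TRAF2, which binds TNFRSF1A complexes through TRADD and recruits ubiquitin ligases, was at 602 (line 1) and 535 (line 7) in the wild type and at 444 (line 1) and 531 (line 5) in the knockout. Knockout line 5 was 4 normalised counts below wild-type line 7, and knockout line 1 was well below both. On the log2 scale the difference was -0.22 ± 0.11 (SE; interval -0.48 to 0.03; limma adjusted p = 0.308). Without knockout line 1 it was -0.10 and without knockout line 5 it was -0.35, and neither passed. Under cyclic loess scaling TRAF2 reached an adjusted p of 0.0572. This was the smallest adjusted p of any tested member over the 15 alternatives, in which TRAF2 itself ranged up to 0.69.

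TRAF3, a brake on non-canonical NF-kB signalling, differed between lines of both genotypes. Its values were 468 and 388 in the wild type and 428 and 510 in the knockout, so the genotypes overlapped, and the log2 fold change was 0.13 ± 0.13 (SE). TRAF6, the adapter shared with Toll-like and interleukin-1 receptors, was at 231 and 230 in the wild type and 221 and 205 in the knockout. The wild-type lines were nearly equal and both knockout lines were lower, with a log2 fold change of -0.11 ± 0.13 (SE; interval -0.40 to 0.17).

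RIPK1, the kinase and scaffold of TNFRSF1A signalling, was the most tightly measured member. It was at 542.5 and 536 in the wild type and at 501 and 523 in the knockout, which was lower in both lines. The log2 fold change of -0.07 ± 0.10 (SE; interval -0.28 to 0.14; limma adjusted p = 0.645) was smaller than its standard error. RIPK2, the kinase downstream of the NOD receptors, was at 412 and 442 against 405 and 375, also lower in both knockout lines, with a log2 fold change of -0.13 ± 0.11 (SE; interval -0.37 to 0.10).

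The 3 tested ligands were all thinly counted. TNFSF10 (TRAIL) was at 34.4 and 46.2 in the wild type and 31.2 and 41.6 in the knockout, with overlapping genotypes and a log2 fold change of -0.14 ± 0.32 (SE). LTB, the membrane anchor of lymphotoxin, was at 26.1 and 31.7 in the wild type, both above the limit of their sample, and at 20.03 and 14.6 in the knockout, of which the value of line 5 was below it. Its log2 fold change of -0.72 ± 0.40 (SE; interval -1.61 to 0.17; limma adjusted p = 0.347) was the largest of any tested member and did not pass. Under cyclic loess scaling it was -0.27, smaller in size than that of FAS (0.45). TNFSF4, the ligand of TNFRSF4, was at 20.9 and 24.8 against 18.9 and 15.6, with only wild-type line 7 above its limit, and had a log2 fold change of -0.39 ± 0.42 (SE).

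Low counts were lower in the knockout over the panel as a whole, but not alike in all lines. The lower quartile of the normalised counts of all genes was 14.6 in wild-type line 1 and 14.5 in knockout line 1, while it was 18.8 in wild-type line 7 and 10.4 in knockout line 5. The 173 tested genes with a mean from 20 to 50 had a median log2 fold change of -0.43, and 144 of them were below 0. The 4 members in that range (LTB, TNFSF4, TNFSF10 and TNFRSF25) had a median of -0.26. The median was 0.03 over the 341 genes at or above 50, and the 8 members among them also had 0.03, with 4 below 0. The mean of the negative control probes, scaled like the genes, was 8.87 and 8.56 in the wild type and 8.48 and 7.93 in the knockout. Whether the shift of low counts accounts for the values of LTB and TNFSF4 was not tested.

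**Figure D4:**
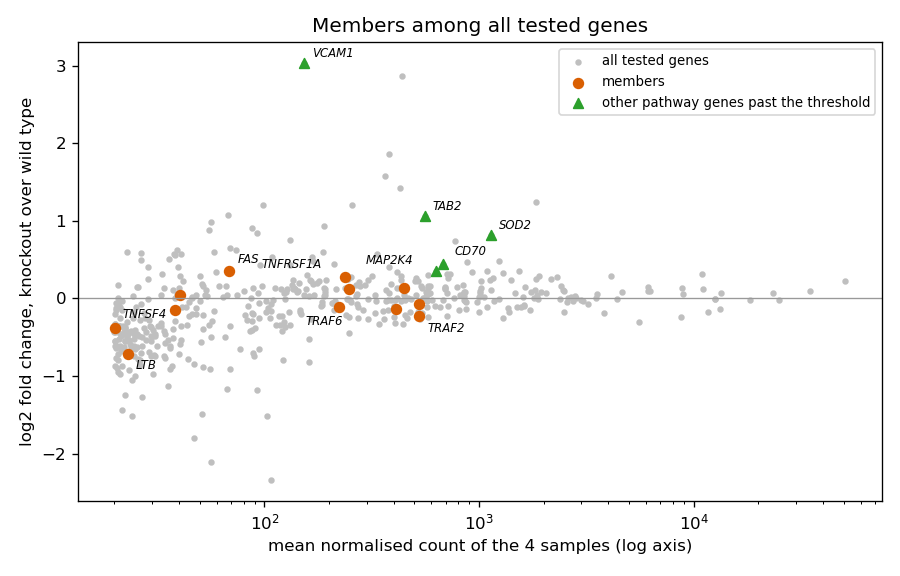
Log2 fold change of knockout over wild type against the mean normalised count of the 4 samples (log axis) for the 514 tested genes (grey), with the 12 members (orange) and the 5 other TNF pathway genes past the threshold (green triangles). Members lie within the grey cloud at every level, and the cloud itself lies mostly below 0 at means under 50.

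The 11 members with a mean under 20 were left out of the main test. In 9 of them the knockout mean was lower on the log2 scale and in 2, TNF and TNFSF18, it was higher. Among all 271 genes under that mean, 195 were lower. Both knockout values were below both wild-type values in 5 of the 11, beside 38.0% of the 271 genes. The 5 were RIPK3, TNFSF13B, TNFRSF17, FASLG and LTBR. In wild-type lines 1 and 7 the median of the 11 was 11.5 and 14.6, the same as that of the 271 genes. In the knockout it was 8.90 (line 1) and 4.16 (line 5), where the 271 genes had 11.1 and 8.33.

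RIPK3, the necroptosis kinase, was at 20.9 and 24.8 in the wild type (20 and 29 counts) and at 13.35 and 9.37 in the knockout (12 and 9 counts). Only wild-type line 7 was above its background limit. TNFSF13B, the B-cell survival factor BAFF, was at 22.95 and 19.7 against 11.1 and 8.33, with no sample above its limit. TNFRSF17, the BAFF-family receptor BCMA of plasma cells, was at 24.0 and 23.1 against 13.35 and 3.12, and its knockout lines differed from each other by 9 counts (12 and 3).

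When the minimum was dropped and all 785 genes were tested, 0 of the 23 members passed, where 4.97% of the genes did (39). Unadjusted p-values under 0.05 were found there for 3 members, TNFRSF17, TNFSF13B and RIPK3, and for 123 genes, and the smallest adjusted p of a member was 0.129 (TNFRSF17, limma). The members with a mean under 20 were thus not called, and whether a difference could be detected at such counts was not tested.

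TNF itself, the cytokine that names the family, was at 4.17 and 6.84 in the wild type and 6.68 and 9.37 in the knockout, below the limit in all 4 samples. FASLG was at 11.5 and 12.8 against 8.90 and 3.12. LTBR, the lymphotoxin beta receptor, was at 11.5 and 19.7 against 8.90 and 11.4, and the lower wild-type value exceeded the higher knockout value by 0.03. TNFSF9 was at 17.7 and 24.0 against 14.5 and 19.8, with overlap. The costimulatory receptors TNFRSF4, TNFRSF9 and TNFRSF18, known from activated T cells, ranged from 3.12 to 14.6 over the 4 samples, and TNFSF18, the ligand of TNFRSF18, from 2.57 to 4.17. Directly adjacent members on a chromosome, namely TNF with LTB, TNFRSF18 with TNFRSF4, and FASLG with TNFSF18 and TNFSF4, ranged from 2.57 to 31.7. The pair TNFRSF1A and LTBR, with 1 coding gene between them, ranged from 8.90 (LTBR) to 288 (TNFRSF1A).

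**Figure D5:**
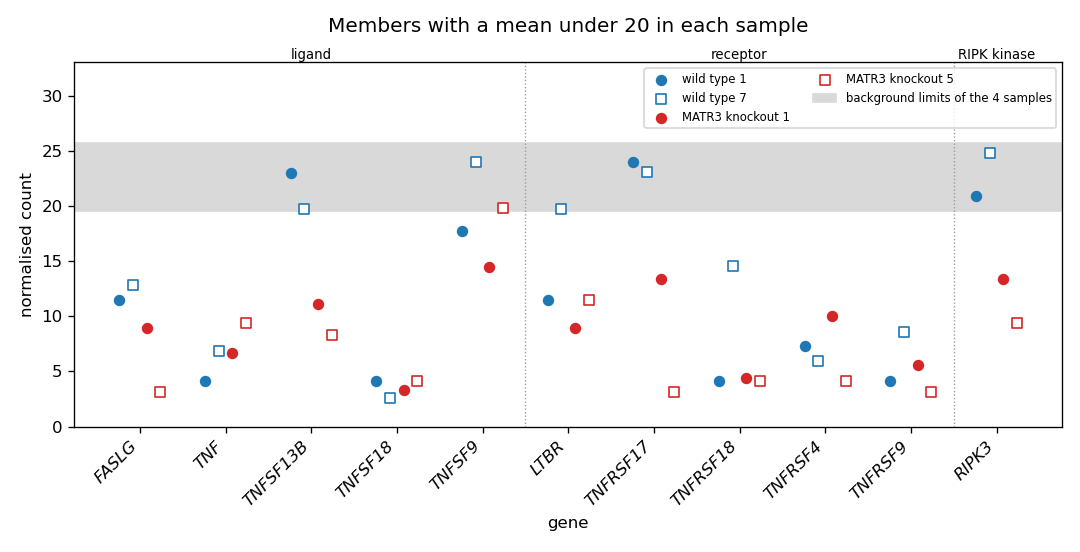
Normalised count of each of the 11 members with a mean under 20 in the 2 wild-type (blue) and 2 knockout lines (red), 1 point per sample, with the range of the 4 background limits in grey. The only points that reach the grey band belong to TNFSF13B, TNFSF9, LTBR, TNFRSF17 and RIPK3, all but 1 of them wild type.

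Around these members, a list of other genes of the TNF pathway did hold genes past the threshold. The list took 41 panel genes (29 of signalling and 12 targets of TNF through NF-kB), of which 31 were tested. All 5 that passed were higher in the knockout (CD70, TAB2, MAP2K4, VCAM1 and SOD2), beside 6.23% of all tested genes called higher. With cyclic loess 8 passed, the added genes being MAP3K5, which was higher, and JUN and MAPK9, which were lower. The 31 genes had 15 log2 fold changes above 0 and 16 below, with a median of -0.003. The list was written with earlier results for VCAM1, SOD2 and TAB2 known, and their calls are no independent evidence.

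CD70 is itself a TNF superfamily ligand, listed in RefSeq also as TNFSF7, which the symbol rule did not take. It was at 574 and 580 in the wild type and at 791 and 782 in the knockout. The lines of a genotype differed by less than 10 normalised counts and the genotypes by more than 200. This was a difference of 0.45 ± 0.09 on the log2 scale (SE; limma adjusted p = 0.00913), and the call held in 14 of 15 alternatives, the exception being limma without the abundance trend (adjusted p = 0.175). Its receptor CD27 (TNFRSF7) was at 42.8 and 58.2 against 47.9 and 43.7, with overlap and a log2 fold change of -0.12 ± 0.28 (SE). CD40 and its ligand CD40LG, the other superfamily genes under older symbols, were below the limit in all 4 samples.

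TAB2, the adapter that holds the kinase TAK1 on ubiquitin chains built after TRAF recruitment, was at 357 and 364 in the wild type and 693 and 816 in the knockout. On the log2 scale it rose by 1.06 ± 0.11 (SE; limma adjusted p = 6.09e-05). TAB1 and MAP3K7, which encode the other subunit and TAK1 itself, had log2 fold changes of -0.003 ± 0.13 and 0.13 ± 0.11 (SE) and did not pass (adjusted p = 0.989 and 0.478). MAP2K4, a kinase that activates JNK, was at 555 and 549 against 703 and 712, and rose by 0.36 ± 0.09 (SE; adjusted p = 0.0325). The call of MAP2K4 did not hold when wild-type line 7 was left out (adjusted p = 0.0773), nor without line 1 (0.0621) or line 5 (0.126) of the knockout. It was also lost under positive control scaling (0.105) and in limma without the abundance trend (0.234).

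The targets that passed were VCAM1, an adhesion molecule, from 28.2 and 37.6 to 274 in both knockout lines, and SOD2, the mitochondrial superoxide dismutase, from 801 and 844 to 1543 and 1352. The other 4 tested targets, CXCL2, CCL2, CCL5 and PTGS2, had log2 fold changes from -0.73 to 0.34 and did not pass. TAB2 and SOD2 lie in a run of panel genes on chromosome 6 from FYN to TBP, both included. In this run all 7 genes averaging at least 50 were higher in both knockout lines, with log2 fold changes from 0.65 to 1.24. Over all tested genes this share was 22.4%. Both ends of the run, FYN and TBP, were themselves called higher, so the run is a description and no independent evidence. Its untested genes with means under 20 differed: PLG was lower in both knockout lines, and IL22RA2 and CCR6 overlapped between genotypes. MAP3K5, which encodes the TRAF2-binding kinase ASK1, lies in the same run, at 56.3 and 50.5 against 72.3 and 97.8 (log2 fold change 0.65 ± 0.24, SE; limma adjusted p = 0.154). The part of this shared position in the calls of TAB2 and SOD2 was not tested.

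The genes of cell death named here, which act next to the members, were not called. CASP8, the caspase of the death receptor complex, had a log2 fold change of 0.13 ± 0.16 (SE), and CFLAR, its inhibitor, of -0.06 ± 0.14 (SE). MLKL, the target of RIPK3, was at 114 and 91.5 in the wild type and 80.1 and 76.0 in the knockout (log2 fold change -0.38 ± 0.20, SE; limma adjusted p = 0.314). Of the NF-kB subunits, NFKB2 was at 283 and 290 against 358 and 342 (0.29 ± 0.11, SE; adjusted p = 0.181), while NFKB1, REL and RELA had adjusted p from 0.46 to 0.653.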

How the data were processed

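NanoString probe counts of 4 samples were deposited as a table of normalised signal, made by the authors with 1 scaling factor per sample, as read from the values (of values above 1 count, 100.0% were whole multiples within 0.006 in each sample). The 10 reference genes, TBP among them, had equal geometric means. TBP was itself called higher in the knockout (log2 fold change 0.75; limma adjusted p = 0.000274). OAZ1, another of the 10, was called lower (-0.24; limma adjusted p = 0.0298). The method is not given in the sources used here; R 4.1.1 is named in the submitters' processing notes. Control probes (6 positive, 8 negative) were unscaled counts. A floor of 1.00 held 4 genes in wild-type line 7.

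Genes with a mean of 20 or more were tested with limma 3.58.1 in R 4.3.3 (lmFit, eBayes with trend) on log2(value + 1), two-sided, with Benjamini-Hochberg adjustment over all tested genes. The edgeR 4.0.16 quasi-likelihood test on recovered counts was an alternative, beside other filters, scalings, a pseudocount of 10 and leaving out samples. Fold changes on this scale understate those of low genes. All tested members were named, with every sample's value. Fits were checked on simulated data. Members, lists and tests were chosen with earlier results of these data known. All 23 member symbols matched the RefSeq table (GRCh38.p14). No assay date was used, so batch and genotype cannot be told apart.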

Additional observations from a re-analysis of the deposited data

How the results depend on the processing

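No member passed the threshold in any of the 15 alternatives, which included the test without a minimum, 3 other scalings besides cyclic loess, edgeR with the authors' or TMM factors and leaving out each sample. The smallest adjusted p was 0.0572 (TRAF2, cyclic loess). The members' median log2 fold change of -0.09 became 0.026 with a minimum mean of 50, which leaves 8 members, and 0.077 with cyclic loess. Of 174 member values under the alternatives, 7 changed sign, all of members that were not called: RIPK1 became 0.0086 when TBP was dropped from the reference genes, and cyclic loess turned TNFSF10 to 0.13 and TNFSF4 to 0.099. Without single samples TNFSF10 ranged from -0.35 to 0.064 (positive when wild-type line 7 or knockout line 1 was left out), TRAF3 from -0.0032 (without wild-type line 7) to 0.27, and TNFRSF25 from -0.072 (without knockout line 5) to 0.16. The cause was not tested. The number of genes called over the panel, 42, was 4 when limma had no trend and 69 under cyclic loess, and ranged from 29 without knockout line 5 to 77 without knockout line 1. The 5 other pathway genes called became 1 (VCAM1) without the trend and 8 under cyclic loess. The panel's split of 32 higher and 10 lower calls was 54 and 8 when TBP was dropped, 40 and 29 under cyclic loess, and turned to 30 higher and 47 lower without knockout line 1. Scaling without TBP, a reference gene that was itself called higher, moved the median of all tested genes from -0.04 to 0.04. The median of the tested members moved from -0.09 to -0.010. No paired analysis was possible because the genotypes share only the number 1. Low counts limit the 16 members with a mean under 200, and with 1 sample per line a smaller change than the intervals allow could not be seen.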
